A study of Homo sapiens with 12 samples.

Results

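The genes of the MYC network were followed in 22Rv1, an established line of human prostate cancer, in which the splicing factor SF3B1 had been edited to C1111S (cysteine replaced by serine), over 3 h with stereoprobes or PladB. The 8 genes were MYC, MAX, MXI1, MXD1, MXD3, MXD4, MNT and MLX, of 18651 coding genes in the files. They were taken by name from the 3′ UTR intervals of curated coding transcripts, and a read lying in overlapping intervals of a gene was counted once. All cells carried the same edited SF3B1, and the labels do not say whether the line is a single clone. The 12 libraries fall into 4 treatments of 3 libraries each: the solvent DMSO (0.1%), the stereoprobes WX-02-23 and WX-02-43 (each at 20 µM), and PladB (10 nM). PladB (pladienolide B) inhibits splicing by binding the SF3b complex, of which SF3B1 is the largest subunit. After the compounds, cells took up 4-thiouridine (100 µM, 1 h), and alkylation of the RNA turned the incorporated base into a T-to-C change in the reads (SLAM-seq). A read with such a change is a T>C read and is taken as RNA made during labelling. Unlabelled cells were not analysed here, and no background of sequencing errors was subtracted from T>C reads.

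MYC is a transcription factor with a basic helix-loop-helix leucine zipper, and it binds DNA as a heterodimer with MAX. The MXD proteins (MXD1, MXI1, MXD3 and MXD4) and MNT also pair with MAX, occupy the same E-box sites and bring in SIN3 and histone deacetylases, so that MAX is shared between activating and repressing dimers. MLX is a MAX-like partner that pairs with some MXD proteins, MNT and the glucose-responsive factor MLXIP (MondoA). MYC RNA is known for very fast turnover, and MYC is often raised in prostate cancer.

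The E-box that MYC and MAX dimers bind is CACGTG, which reads the same on both strands. It was searched for in RefSeq promoter windows (GRCh38.p14, 250 bases before to 50 bases after a start) of 7 of the genes with 10 start sites. MYC was left out of these 7, so whether its own windows held the motif is not reported here. MXD4, MNT and MLX each had 1 E-box, and none was in the windows of MAX (2 starts), MXI1 (3 starts), MXD1 or MXD3. Of 35116 such windows of all genes, 2548 (7.26%) held the motif. The stretches around the motif are shown 5′ to 3′ on the strand of the gene, with the E-box in capitals, because these 3 genes can be set beside the others in the results below. Counted from the start of transcription, the motif began at -238 in MXD4 (chr4:2262315-2262359, minus strand), at -193 in MNT (chr17:2401221-2401280, minus strand) and at -50 in MLX (chr17:42567023-42567082, plus strand).
MXD4: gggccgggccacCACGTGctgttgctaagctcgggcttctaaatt
MNT: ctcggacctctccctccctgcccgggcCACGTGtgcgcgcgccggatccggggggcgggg
MLX: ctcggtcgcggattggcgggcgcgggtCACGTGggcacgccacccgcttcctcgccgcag
A match of letters says nothing about whether a protein was bound in these cells.

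All values come from 3′ UTR intervals, given here in hg19. MYC was read over 476 bases of its 3′ UTR (chromosome 8, 128753205 to 128753680, plus strand). MAX had 3 separate intervals on the minus strand of chromosome 14. The first (65541842 to 65544129) held 4598 of its DMSO reads, the second (65550457 to 65550897) held 139, and the third (65472819 to 65472921) held 0 in every library. MXI1 was read on chromosome 10 (112044746 to 112047123, plus strand) and MXD1 on chromosome 2 (70165417 to 70170077, plus strand). MXD3 had 2 intervals on the minus strand of chromosome 5 (176734206 to 176734588, and 176732501 to 176734119), with 1520 and 109 DMSO reads. MXD4 lay on chromosome 4 (2249160 to 2252270, minus strand), MNT on chromosome 17 (2287354 to 2290194, minus strand) and MLX on chromosome 17 (40723622 to 40725221, plus strand). The second MXD3 interval spans an interval of PRELID1 on the opposite strand that held 66564 reads over the 12 libraries against 213 for the MXD3 interval, so the counting kept the strands apart. The share of multimapping reads was at most 2.14% for these genes.

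Library totals ran from 24670716 to 42190854 reads. Over all coding genes, 9.45% ± 0.430 (SD, n = 3) of reads had a T>C change in DMSO, 9.64% ± 0.217 after WX-02-23, 9.10% ± 0.277 after WX-02-43 and 5.44% ± 0.191 after PladB. The share of covered T positions that were converted was 0.706% ± 0.0245 in DMSO, 0.811% ± 0.0156 after WX-02-23, 0.913% ± 0.0364 after WX-02-43 and 0.318% ± 0.00897 after PladB. Labelling over all genes was thus lower after PladB, at 0.576 of the DMSO share of reads, and each labelled value below has to be read beside that. All 9 luminal prostate markers (KLK3, FOXA1 and others) had reads in every library, while the basal markers KRT5 and TP63 were at 0 in all libraries. The summed luminal markers ran from 3022 to 3278 CPM in DMSO, 2379 to 2734 after WX-02-23, 2561 to 2695 after WX-02-43 and 3499 to 3735 after PladB, and their part in the results was not tested. In such bulk libraries, fewer cells with a transcript and less of it per cell cannot be told apart.

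Counts were tested with edgeR's quasi-likelihood test over all genes, and an adjusted p (Benjamini-Hochberg) under 0.05 is a call. Levels are CPM, reads scaled to a common library size as in that fit (TMM scaling), with 3 libraries a group, and changes are log2 with their standard error (SE). After PladB, all 8 genes were called in all reads against DMSO: MYC, MXI1 and MXD1 rose, and MAX, MXD3, MXD4, MNT and MLX fell. The calls of MXI1 and MXD1 depended on the scaling, as given below. In 3 genes upward and 5 genes downward, the PladB libraries did not overlap the DMSO libraries. The share of all genes without overlap was not counted, here or below, so statements on overlap describe the 8 genes alone. Of 13178 genes tested, 30.1% were called in this comparison (1829 higher and 2143 lower), and the median change of all genes was −0.07. After either stereoprobe, 0 of the 8 genes were called in all reads by edgeR (2 and 0 at an unadjusted p under 0.05), against 0.698% of all genes called after WX-02-23 and 0.167% after WX-02-43. At an unadjusted p under 0.05, it was 1146 and 772 of the 13178 genes.

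**Figure D1:**
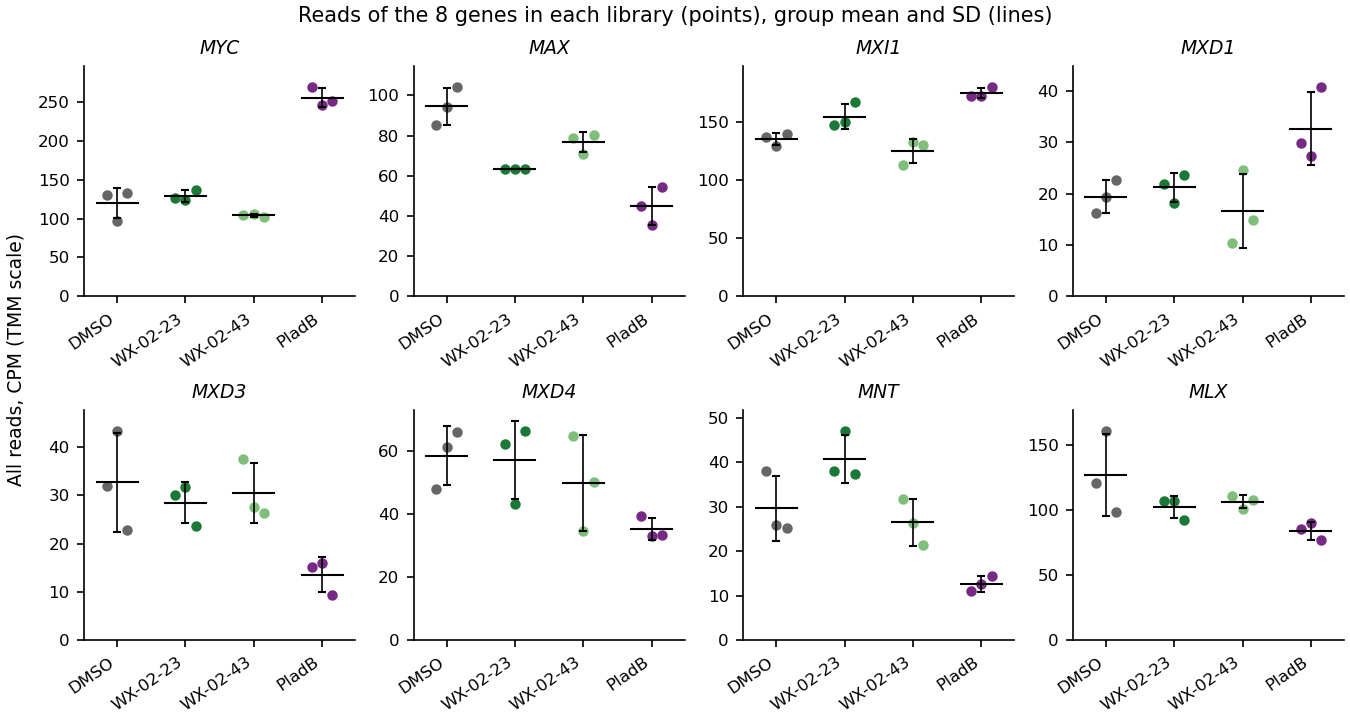
All reads of each of the 8 genes in CPM (vertical axes, each from 0) in the 12 libraries, by treatment (horizontal axes); points are libraries, horizontal lines are group means and error bars are SD (n = 3). The PladB libraries stand above all DMSO libraries for MYC, MXI1 and MXD1 and below all DMSO libraries for the other 5 genes.

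MYC, the activating member, was the gene with the highest rise among the 8. Its level in all reads was 130.1, 97.4 and 133 CPM in the DMSO libraries and 269, 246 and 251 CPM after PladB. It was 127, 123 and 137 CPM after WX-02-23 and 105, 106 and 102 CPM after WX-02-43. The PladB libraries were all higher than any other, and the DMSO libraries overlapped those of both stereoprobes. The groups ran, from low to high mean, WX-02-43 (104 ± 1.97), DMSO (120.1 ± 19.7), WX-02-23 (129 ± 7.19) and PladB (255 ± 12.1), and only the last step exceeded the spread between libraries of neighbouring groups. The change from DMSO to PladB was 1.09 (SE 0.13, adjusted p = 1.0e-08), a 2.13-fold rise. MYC kept this call without any single library of the 2 groups.

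The rise of MYC in all reads was split between reads with and without T>C. On the scale of all reads, T>C reads gave 109, 79.7 and 122 CPM of MYC in DMSO and 136, 112 and 129 CPM after PladB, which overlap. Reads without T>C gave 21.4, 17.7 and 10.5 CPM in DMSO and 133, 133.8 and 122 CPM after PladB, with no overlap. Scaled in this way, the change of MYC T>C reads was 0.28 (adjusted p = 0.191) and was not called. Scaled to T>C reads alone, the main scaling here, MYC gave 1109, 867 and 1274 CPM in DMSO and 2414, 2030.3 and 2441 CPM after PladB. That change was 1.08 (SE 0.15, adjusted p = 1.0e-06). Reads without T>C, scaled among themselves, rose by 2.88 (SE 0.25, adjusted p = 1.8e-11), from a mean of 18.4 ± 6.14 to 135 ± 6.96 CPM. So the call for newly made MYC RNA depends on whether it is set against other labelled RNA or against all RNA, and the rise in all reads and in reads without T>C does not.

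**Figure D2:**
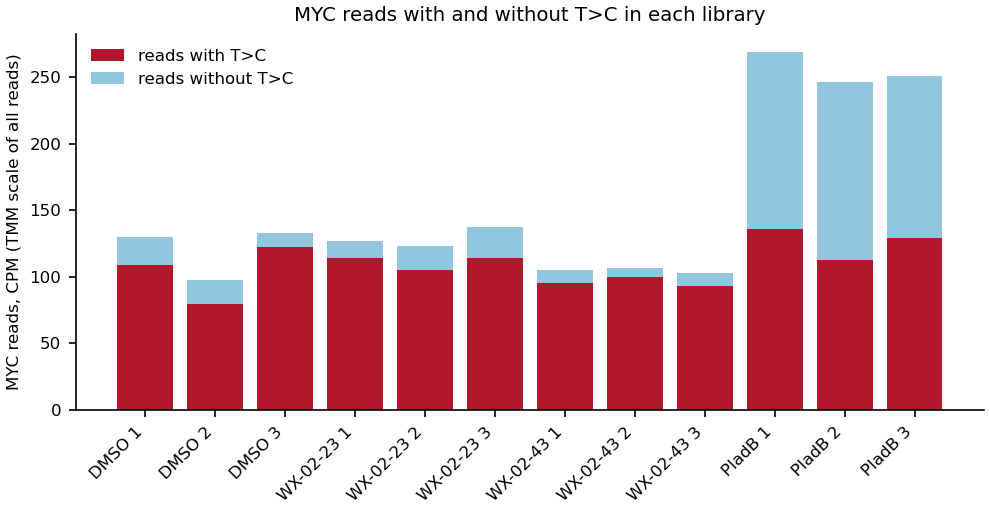
MYC reads in each of the 12 libraries, in CPM on the scale of all reads (vertical axis), with T>C reads in the lower part of each bar and reads without T>C in the upper part. The lower parts are 79.7 to 122 CPM in DMSO and 112 to 136 CPM after PladB, while the upper parts are 10.5 to 21.4 CPM in DMSO and 122 to 133.8 CPM after PladB.

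MAX, the shared partner, fell. Its level in all reads was 85.4, 94.2 and 104 CPM in DMSO, 44.8, 35.4 and 54.6 CPM after PladB and between 63.2 and 63.4 CPM in the 3 WX-02-23 libraries. After WX-02-43 it was 78.8, 70.9 and 80.2 CPM. Every treated library was below every DMSO library, with PladB lowest, then WX-02-23, then WX-02-43, and no 2 neighbouring groups overlapped. The change after PladB was −1.07 (SE 0.17, adjusted p = 2.7e-06). The changes after WX-02-23 (−0.58, SE 0.16, adjusted p = 0.104) and WX-02-43 (−0.30, SE 0.16, adjusted p = 0.868) were not called by edgeR, and DESeq2 called the first (−0.58, adjusted p = 0.0352).

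MXI1, an MXD-family repressor, rose by a small amount. Its level in all reads was 137, 129.7 and 139.6 CPM in DMSO and 172, 173 and 180.2 CPM after PladB. It was 147, 149.8 and 167 CPM after WX-02-23 and 113, 133 and 130.0 CPM after WX-02-43. The PladB libraries were above all others, and those of WX-02-23 lay between them and DMSO. The change after PladB was 0.37 (SE 0.12, adjusted p = 0.0157). It was not called with library totals alone as the scaling (0.11, adjusted p = 0.539) or without PladB replicate 3 (adjusted p = 0.0602).

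MXD1, the founding MXD repressor, which is known to rise when cells leave the cycle and differentiate, also rose. It had 16.2, 19.3 and 22.6 CPM in DMSO, 29.9, 27.3 and 40.7 CPM after PladB, 21.9, 18.2 and 23.7 CPM after WX-02-23, and 10.4, 24.6 and 14.8 CPM after WX-02-43. PladB was above all other libraries, and the other 3 groups overlapped. The change after PladB was 0.75 (SE 0.29, adjusted p = 0.0467), close to the threshold. It was not called by DESeq2 (adjusted p = 0.0511), with library totals alone (0.50, adjusted p = 0.214), with a plain sum over intervals (adjusted p = 0.0605), or without DMSO replicate 1 (0.174), DMSO replicate 2 (0.0914), PladB replicate 1 (0.0648) or PladB replicate 3 (0.236), these being adjusted p-values.

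MXD3 and MXD4, repressors of the same family, and MNT, the most widely expressed MAX-binding repressor, fell. MXD3 had 32.0, 43.4 and 22.9 CPM in DMSO and 15.2, 16.0 and 9.39 CPM after PladB, a change of −1.27 (SE 0.28, adjusted p = 0.00036). MXD4 had 48.1, 61.5 and 66.1 CPM in DMSO and 39.3, 32.9 and 33.3 CPM after PladB, a change of −0.73 (SE 0.21, adjusted p = 0.0063). MNT had 37.9, 25.7 and 25.1 CPM in DMSO and 10.9, 12.5 and 14.5 CPM after PladB, a change of −1.23 (SE 0.26, adjusted p = 0.00025). In each of these genes the 3 PladB libraries were the lowest 3 of the 6, and the 3 calls held without any single library. After WX-02-23 they had 23.7 to 31.7 CPM (MXD3), 43.2 to 66.4 CPM (MXD4) and 37.4 to 47.0 CPM (MNT). After WX-02-43 they had 26.4 to 37.6, 34.5 to 64.9 and 21.3 to 31.7 CPM in the same order. These ranges overlapped those of DMSO in all 3 genes, and MNT was higher in every WX-02-23 library than in any WX-02-43 library. In the main fit the MXD family thus went in both directions after PladB: MXI1 and MXD1 up, MXD3 and MXD4 down. Both upward calls were lost with library totals alone.

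MLX, the partner at the side branch of the network, fell. It had 121, 161 and 98.2 CPM in DMSO and 84.9, 90.2 and 76.5 CPM after PladB, with 92.1 to 107 CPM after WX-02-23 and 101 to 111 CPM after WX-02-43. The PladB libraries were below all others, and DMSO, the most variable group, overlapped both stereoprobes. The change after PladB was −0.59 (SE 0.15, adjusted p = 0.0020), and without DMSO replicate 2, the highest library, it was −0.39 (adjusted p = 0.0461). Among the genes searched, MXD4, MNT and MLX, which had an E-box in the window, all fell, as did MAX and MXD3, which had none.

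T>C reads were fewer, and only MYC and MXI1 were called in them. After PladB, 2 of 8 genes rose, 0 fell and 6 were not called, against 10.6% of 10722 genes called (506 higher and 633 lower) with a median of −0.36 over all genes. MXI1 had 337, 226 and 424 T>C CPM in DMSO and 582, 534 and 586 after PladB, a change of 0.78 (SE 0.25, adjusted p = 0.0391). The MXI1 call was lost with library totals alone (0.53, adjusted p = 0.187), with a plain sum over intervals, with only the 2 groups in the fit, and without DMSO replicate 1 or 2 or PladB replicate 1 or 3, and with T>C reads scaled to all reads the value was −0.02. The changes of the other genes were −1.31 (SE 0.78) for MAX, 0.99 (SE 0.62) for MXD1, −2.56 (SE 1.41) for MXD3, −0.31 (SE 1.09) for MXD4, −1.34 (SE 0.75) for MNT and −1.08 (SE 0.48) for MLX. Their adjusted p-values ran from 0.15 (MLX) to 0.916 (MXD4). MLX was called by DESeq2 (−1.15, adjusted p = 0.0294), and MAX without PladB replicate 2 (−2.60, adjusted p = 0.0401). These 6 genes had few T>C reads after PladB, from 0 in MXD3 replicates 1 and 2 and MNT replicate 2 to 114 in MXD1 replicate 2. In T>C reads scaled to all reads, where the median of all genes was −1.15 after PladB, MNT (−2.16, adjusted p = 0.0411) and MLX (−1.87, adjusted p = 0.00505) were called lower.

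Reads without T>C followed all reads. After PladB, MYC and MXI1 (0.38, adjusted p = 0.0274) rose, and MAX (−1.10), MXD3 (−1.25), MXD4 (−0.81), MNT (−1.09) and MLX (−0.58) fell, with adjusted p-values from 5.8e-06 to 0.0050. MXD1 (0.84, adjusted p = 0.0769) was not called, and was called without DMSO replicate 3 (adjusted p = 0.0469) or PladB replicate 2 (adjusted p = 0.0375). That is 7 of 8 genes, against 26.5% of 13023 genes. The MXI1 call was lost without DMSO replicate 1 or 3 or PladB replicate 2 or 3 (adjusted p 0.0552 to 0.0874), and the MLX call without DMSO replicate 2 (−0.36, adjusted p = 0.0941).

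**Figure D3:**
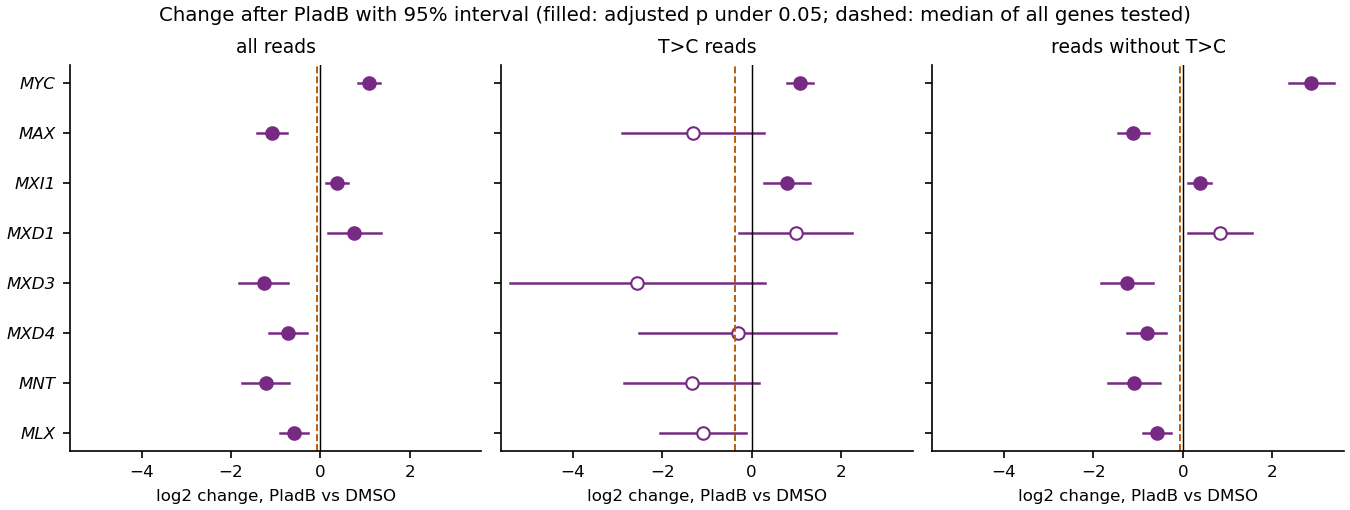
Log2 change of each of the 8 genes from DMSO to PladB (horizontal axes) in all reads, T>C reads and reads without T>C; points are fitted changes, lines their 95% intervals, filled points have an adjusted p under 0.05 and the dashed line is the median of all genes tested. MYC is right of 0 in all 3 readouts, from 1.08 to 2.88, and MAX, MXD3, MXD4, MNT and MLX are left of 0 in each, with wide intervals in T>C reads.

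The labelled share, the percent of a gene's reads with T>C, set MYC apart from the other 7 genes in every group. In DMSO it was 83.6%, 81.8% and 92.1% for MYC. The other genes had group means from 4.97% ± 3.01 (MXD4) to 30.5% ± 25.0 (MXD1), with MAX at 8.09% ± 1.38, MXD3 at 9.40% ± 6.40, MLX at 12% ± 4.56, MXI1 at 23.1% ± 6.6 and MNT at 26.1% ± 11.5. With reads of 3 libraries pooled, MYC had 86.2% in DMSO and ranked 7th of 8909 genes that had a mean of at least 100 reads in each group. Their median was 8.80%.

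After PladB the MYC share was 50.6%, 45.6% and 51.3%, with no overlap with DMSO. The difference was −36.6 percentage points, and an exact two-sided permutation test gave p = 0.1, the smallest that 3 against 3 libraries allow (0.6 adjusted over 48 tests). MLX went from 8.15%, 10.8% and 17.0% to 3.67%, 5.47% and 5.14%, also without overlap, and the other 6 genes overlapped between groups. Shares of 0 were found in MXD3 (0 of 273 and 0 of 217 reads in PladB replicates 1 and 2, which allow up to 1.1% and 1.38%) and in MNT (0 of 170 reads in PladB replicate 2, up to 1.76%), for counting error only. The edgeR test of the log2 odds of T>C against other reads, where the median change of all genes was −0.47, called MYC lower (−1.84, SE 0.29, adjusted p = 0.00056) and 0 of the other genes, which also had no unadjusted p under 0.05, against 2.80% of 10684 genes called. At an unadjusted p under 0.05, it was 1735 of the 10684. MYC kept that call without any single library.

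**Figure D4:**
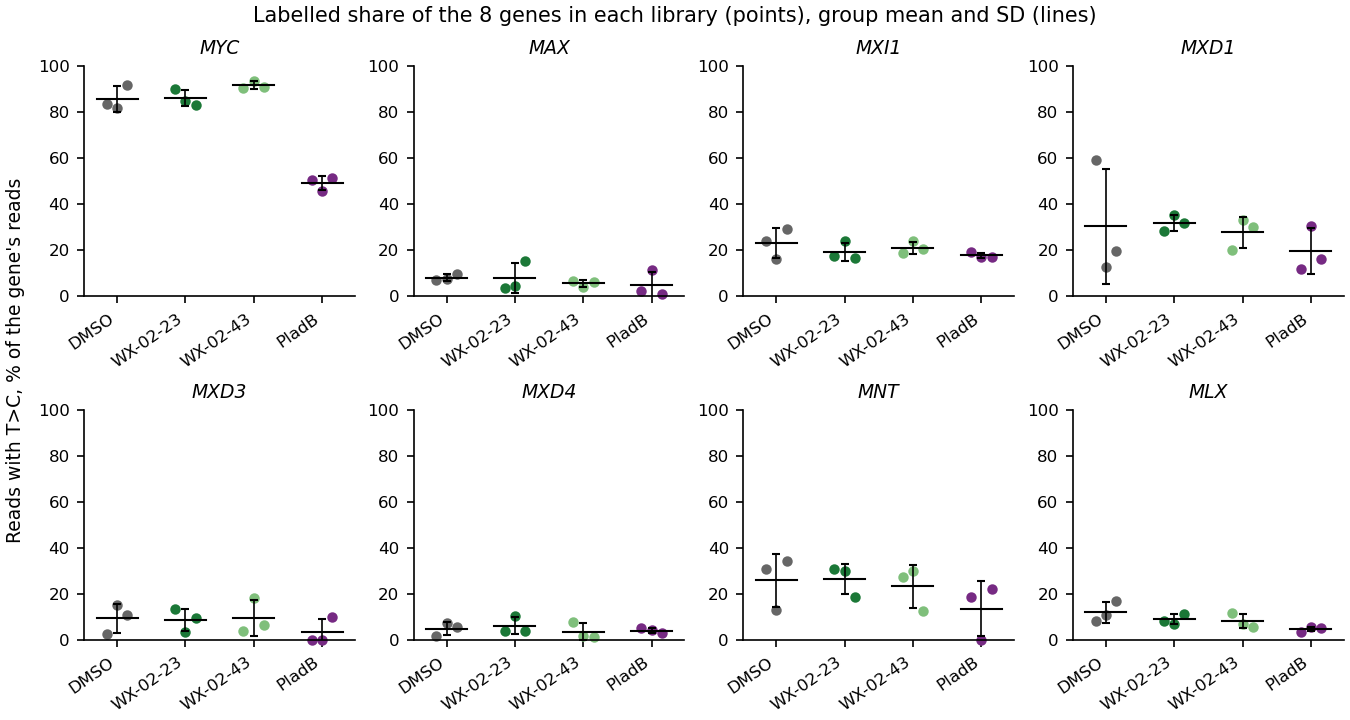
Labelled share of each of the 8 genes (percent of reads with T>C, vertical axes from 0 to 100) in the 12 libraries by treatment; points are libraries, horizontal lines group means and error bars SD (n = 3). MYC lies between 81.8% and 93.7% in the 9 libraries without PladB and between 45.6% and 51.3% in the 3 PladB libraries, and within each library the other genes lie lower than MYC.

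As a ratio, the fall of the MYC share was close to that of other genes. The pooled MYC share after PladB was 0.573 of that in DMSO, against a median ratio of 0.513 over the 8909 genes, 7591 of which were below 1. Among 45 genes with a DMSO share of at least 70%, a threshold chosen after the data were seen, the median ratio was 0.576 and MYC was 22nd from the lowest. In reads without T>C, 29 of 44 such genes tested were called higher and 0 lower after PladB, beside 12% and 14.5% of all genes. The median of the set was 1.84, and MYC was 6th from the highest. The set was picked by a DMSO share made from these same reads, so its counts are a description. In all reads, 21 of 45 were called higher and 3 lower, beside 13.9% and 16.3% of all genes, with a median of 0.63, and MYC was 16th. Whether reads without T>C come from RNA made before labelling or from RNA made with less label cannot be told apart here. The ratios of the other genes were 0.469 for MAX, 0.763 for MXI1, 0.627 for MXD1, 0.218 for MXD3, 0.823 for MXD4, 0.530 for MNT and 0.404 for MLX.

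**Figure D5:**
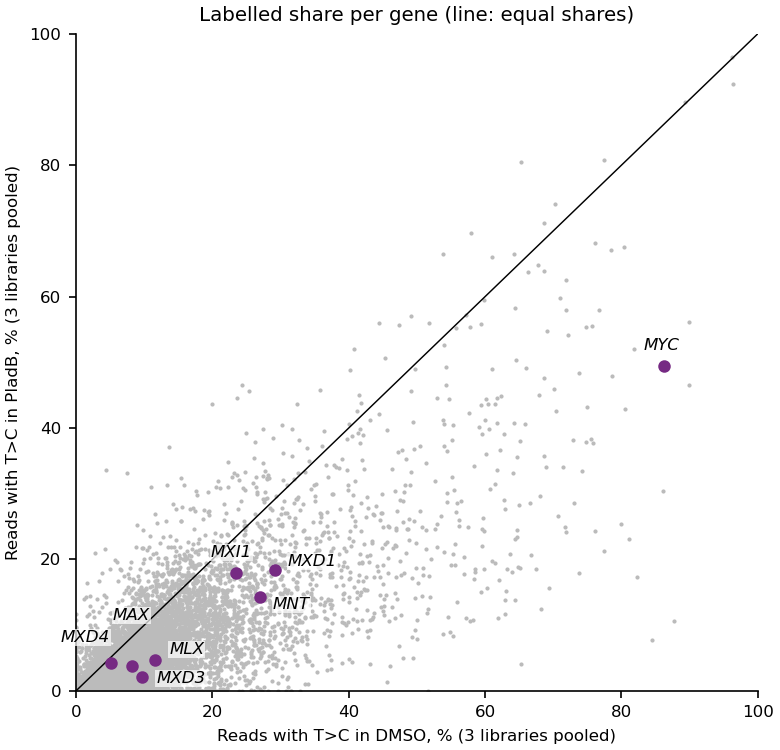
Labelled share in DMSO (horizontal axis) and after PladB (vertical axis), both in percent with 3 libraries pooled, for 8909 genes (grey) and the 8 genes of the MYC network (purple, named); the line marks equal shares. MYC lies at 86.2% and 49.4%, and all 8 genes lie below the line.

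The conversion rate of MYC, the percent of covered T positions read as C, separated all 4 groups. It was 6.87%, 6.80% and 6.13% in DMSO, 9.69%, 8.80% and 8.23% after WX-02-23, 10.7%, 11.5% and 11.3% after WX-02-43, and 3.11%, 2.74% and 3.28% after PladB. No 2 groups overlapped, and their order was that of the conversion rate over all coding genes. A T>C read of MYC carried 2.91 ± 0.322 conversions in DMSO, 3.59 ± 0.179 after WX-02-23, 4.33 ± 0.158 after WX-02-43 and 2.34 ± 0.0826 after PladB. Relative to DMSO the MYC rate was 1.35 after WX-02-23, 1.69 after WX-02-43 and 0.461 after PladB, beside 1.15, 1.29 and 0.450 over all coding genes. Each comparison had an exact permutation p of 0.1, the smallest possible, and 0.436 adjusted over 48 tests. The rates of MAX (0.521% to 0.185%) and MXI1 (1.25% to 0.850%) also did not overlap between DMSO and PladB.

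For the stereoprobes, which had the same dose and time, edgeR called 0 of the 8 genes against DMSO or against each other in all reads, T>C reads or reads without T>C, while DESeq2 called MAX after WX-02-23 in all reads and MYC between the probes in reads without T>C. In T>C reads the share of all genes called was 0.224% for WX-02-23 and 0.0933% for WX-02-43 against DMSO, and 0.0466% between the 2 probes. Between the probes it was 0.152% in all reads. In reads without T>C it was 0.530%, 0.161% and 0.0921% in the same order. At an unadjusted p under 0.05, all reads gave 2 genes for WX-02-23 (MAX and MLX), 0 for WX-02-43 and 3 between the probes (MYC, MXI1 and MNT), T>C reads gave 0 in each, and reads without T>C gave 2, 1 and 3. Over all genes, that threshold gave 1146, 772 and 726 of 13178 in all reads. It gave 487, 409 and 306 of 10722 in T>C reads and 1091, 730 and 723 of 13023 in reads without T>C. Between the probes in all reads, MYC was 0.30 higher after WX-02-23 (95% interval 0.05 to 0.56), MXI1 0.31 higher (0.06 to 0.55) and MNT 0.62 higher (0.12 to 1.13), with adjusted p-values of 0.809, 0.795 and 0.809, and in each the 3 WX-02-23 libraries were above the 3 WX-02-43 libraries. For MYC T>C reads the interval between the probes was −0.16 to 0.43.

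The value of MYC closest to a call between the probes was in reads without T>C. There it had 14.1, 20.5 and 25.6 CPM after WX-02-23 and 11.1, 7.42 and 10.1 CPM after WX-02-43, beside 23.8, 19.6 and 11.7 CPM in DMSO. Against DMSO, the edgeR change was −0.95 after WX-02-43 (adjusted p = 0.127) and 0.12 after WX-02-23 (adjusted p = 0.968). Neither was called in the main fit. The probes did not overlap, with a difference of 1.07 (SE 0.24, adjusted p = 0.0705) that DESeq2 called (adjusted p = 0.0429), as did edgeR with no filter on low counts or without WX-02-23 replicate 1. The MYC share was 90.0%, 85.0% and 83.2% after WX-02-23 and 90.5%, 93.7% and 91.1% after WX-02-43, again without overlap (exact permutation p = 0.1). The higher conversion rate over all genes after WX-02-43 moved with this difference, and its part in it was not tested.

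PladB was also set against each stereoprobe, although its dose differs from theirs. In all reads against WX-02-23, MYC rose (0.99, SE 0.12, adjusted p = 5.5e-08) and MAX (−0.49), MNT (−1.69), MXD3 (−1.07) and MXD4 (−0.70) were lower, which is 5 of 8 genes against 31.2% of all genes. The MAX call was lost without PladB replicate 2 (adjusted p = 0.137), and the MXD4 call without WX-02-23 replicate 3 (adjusted p = 0.0557). Against WX-02-43, MYC (1.29), MXI1 (0.48) and MXD1 (0.98) were higher and MAX (−0.77), MNT (−1.07) and MXD3 (−1.17) lower, 6 of 8 against 30.8%. The MXD1 call was lost without WX-02-43 replicate 1 (adjusted p = 0.0900) or PladB replicate 3 (adjusted p = 0.0741), and with library totals alone both MXD1 (0.69, adjusted p = 0.0703) and MXI1 (0.21, adjusted p = 0.206) were not called. In T>C reads, MYC (0.98 and 1.12) and MXI1 (0.85 and 0.95) were the 2 genes called against WX-02-23 and WX-02-43, against 10.1% and 10.4% of all genes, and MXI1 lost the first call without WX-02-23 replicate 1 or 3 or PladB replicate 1 or 3 and the second without WX-02-43 replicate 1. With T>C reads scaled to all reads, neither MYC (0.18 and 0.39) nor MXI1 (0.06 and 0.23) was called. In reads without T>C, 5 and 7 of 8 genes were called against 28.1% and 27.6%, and MYC differed by 2.75 and 3.83. There the MAX call against WX-02-23 was lost without WX-02-23 replicate 1 or 2 or PladB replicate 2. Against WX-02-43, the MXD1 call was lost without WX-02-43 replicate 1 or 3 or PladB replicate 3, the MXD4 call without these or PladB replicate 2, and the MNT call without WX-02-43 replicate 1 or PladB replicate 1. The labelled odds of MYC were lower by 1.83 and 2.74 on the log2 scale (adjusted p = 0.00064 and 3.1e-06), the only one of the 8 genes called, against 2.95% and 2.83% of all genes. These comparisons share the PladB libraries with the one against DMSO.

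Counts of 1 gene relative to another in the same library need no scaling between libraries. The ratio of MYC reads to MAX reads was 1.52, 1.03 and 1.28 in DMSO, 2.00, 1.95 and 2.17 after WX-02-23, 1.33, 1.5 and 1.28 after WX-02-43, and 6.01, 6.96 and 4.60 after PladB. The PladB libraries were highest, WX-02-23 lay above DMSO and WX-02-43 in all 3 libraries, and DMSO and WX-02-43 overlapped. The ratio of MXI1 to MAX reads went from 1.44 ± 0.144 in DMSO to 4.01 ± 0.806 after PladB, and that of MXD1 from 0.204 ± 0.0137 to 0.729 ± 0.0551. MXD3 (0.351 ± 0.122 and 0.321 ± 0.141) and MNT (0.319 ± 0.109 and 0.288 ± 0.0586) had ratios to MAX that overlapped between DMSO and PladB. MAX itself was at 0.475 of its DMSO level after PladB and 0.669 after WX-02-23 in the fit of all reads, the latter not called by edgeR. Each ratio thus moves with MAX as well as with the other gene. A ratio of reads between genes is no ratio of molecules, and only its movement between groups is read here.

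Other genes of the pathway were taken from 7 lists drawn from textbook roles, and counted in all reads after PladB beside the same 30.1% of all genes called. Of 10 other factors of the same structural class tested, USF2 and MYCN rose and MLXIP, MGA and TFE3 fell. MLXIP, the partner of MLX, went from 283 ± 31.5 CPM in DMSO to 141 ± 7.85 (−1.01, adjusted p = 6.0e-09), and MGA, a large MAX partner, from 16.2 ± 4.20 to 7.38 ± 5.73 (−1.14, adjusted p = 0.0230). MYCN, a MYC paralog, was near 0 in DMSO (0.525 ± 0.909 CPM) and 9.90 ± 3.79 after PladB (4.20, SE 1.12, adjusted p = 0.0033). At that level, MYCN could not have passed the filter on low counts by its DMSO libraries, and the size of its change is uncertain. USF2, which also binds E-boxes, went from 209.8 ± 20.2 to 320.3 ± 6.20 CPM. The list's median was −0.60, beside −0.07 for all genes.

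Of 12 corepressor genes that the MXD and MNT proteins recruit, 3 rose (SAP18, HDAC1 and HDAC2) and 4 fell, SIN3B, SIN3A and ARID4B among them. SIN3B, a scaffold of the complex, went from 38.4 ± 7.59 CPM to 6.83 ± 2.74 (−2.50, adjusted p = 4.9e-09), and SIN3A, its paralog, from 66.7 ± 11.4 to 22.8 ± 8.10 (−1.54, adjusted p = 7.5e-07). SAP18, a small SIN3-associated protein, went the other way, from 183 ± 9.93 to 293 ± 14.0 CPM. In T>C reads, where 10.6% of all genes were called, HDAC1 (1.14) and SAP18 (1.46) rose, SIN3A (−1.45) fell and 9 of 12 were not called. Both SIN3 scaffolds fell, while SAP18 and the 2 deacetylase genes rose.

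Of 16 cofactors of MYC, RUVBL2 (0.55) and RUVBL1 (0.31), ATPases of chromatin complexes, rose and WDR5 (−0.69), a histone methylation cofactor, fell in all reads, and 13 were not called. In T>C reads edgeR called 0 of the 16, with 1 at an unadjusted p under 0.05, beside 10.6% of all genes called and 2580 of 10722 at an unadjusted p under 0.05. Of 16 genes of MYC protein turnover, STUB1 and FBXW7, both ubiquitin ligase genes, rose and BTRC, AURKA, USP37, USP36 and PPP2R5A fell. FBXW7 went from 35.5 ± 5.06 to 64.5 ± 10.6 CPM (0.86, adjusted p = 0.0012), and BTRC from 24.8 ± 4.61 to 4.54 ± 1.46 CPM (−2.45, adjusted p = 7.6e-08). AURKA, a kinase that stabilises MYC proteins, went from 50.01 ± 4.83 to 27.5 ± 2.56 CPM. These lists had medians of −0.23 and −0.33.

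Genes known to be raised by MYC moved both ways. Of 39 tested in all reads, 13 rose, 6 fell and 20 were not called, with a median of 0.15. PTMA, an abundant nuclear protein gene, went from 2147 ± 29.5 to 3509 ± 77.8 CPM (0.71, adjusted p = 6.0e-11), and FBL, a nucleolar methyltransferase, from 430.1 ± 23.7 to 684 ± 40.6 CPM (0.67, adjusted p = 1.9e-06). NOP2 (−1.30) and WDR43 (−1.22), which act in ribosome assembly, fell. In T>C reads, HSPD1, PTMA, SLC7A5 and CDK4 rose and UBTF and MTHFD2 fell, with 32 of 38 not called, beside the same 10.6% of all genes called.

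Of 15 genes known to be lowered by MYC, CDKN1B, GADD45B, ITGB1 and NDRG2 rose and BTG2 fell, with a median of 0.35. CDKN1B, the cell cycle inhibitor p27, went from 227 ± 3.05 CPM in DMSO to 377 ± 40.4 after PladB (0.73, adjusted p = 1.1e-06) and to 304 ± 22.2 after WX-02-23 (0.42, adjusted p = 0.0465). The latter was the only call in these lists after a stereoprobe. In that comparison 0.698% of all genes were called in all reads, so the call is not read as a trait of the lists. In T>C reads after PladB, BTG1 (0.53) and CDKN1B (0.59) rose, NDRG1 (−3.31) fell and 12 of 15 were not called. Of 7 glucose response genes bound by MLX dimers, TXNIP rose in all reads, from 821 ± 44.2 to 1301 ± 103 CPM (0.67, adjusted p = 3.2e-08), and in T>C reads (0.75). KLF10 and ARRDC4 fell in all reads, and KLF10 also in T>C reads (−1.56).

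Over the 12 libraries, the 5 genes whose T>C reads, as log2(CPM + 1), were most like those of MYC among 3152 genes were RPL5 (Pearson r = 0.982), YWHAB (0.980), SET (0.976), APH1A (0.966) and PCBP1 (0.963). The points share 4 treatments and the same T>C scaling, so the correlation is a description of the step at PladB. Their T>C reads were higher after PladB by 1.00 (SET) to 1.51 (RPL5), beside 1.08 for MYC. Their labelled shares in DMSO were 5.73% to 20.8%, far under the MYC share. MXI1 had r = 0.904, MNT −0.437 and MLX −0.577, and the other members did not have a mean of 100 T>C reads.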

How the data were processed

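SLAM-seq 3′ end libraries of 12 samples were used. Per the file headers, the authors mapped, filtered and counted reads with slamdunk 0.4.3 over 3′ UTR intervals. Per the submitters' processing notes, reads were placed on hg19. The deposited files give raw counts of reads, T>C reads, covered T positions and conversions per interval. The authors also deposited CPM, which gave library totals, and a conversion rate as a fraction of covered T positions. The labels call the molecule genomic DNA, whereas their protocols describe RNA.

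Where coding intervals of a gene overlapped, the one with the most reads was kept and those overlapping it were left out. Of those left out, 39 lay partly outside a kept interval, and reads only there were not counted. Of 43 names turned into dates, 42 were restored, and 23 pseudoautosomal intervals were left out. Spike-in intervals held almost no reads and were not used. Counts were fitted with edgeR 4.0.16 in R 4.3.3 (quasi-likelihood, all 12 libraries, group as the only term, TMM, filterByExpr) for T>C reads, all reads and reads without T>C. Labelled odds were tested in 1 model over T>C and other reads with a term for the library. The scripts were tested on simulated data. Alternatives were DESeq2 1.42.0, other scalings and filters, a plain sum over intervals, a replicate block and leaving out each library. Labelled shares and conversion rates were compared by exact two-sided permutation tests. Reads carry no molecular identifiers, so floors cover counting error only. Whether replicates came from separate cultures is not stated in the labels, and the p-values then describe only how much these samples vary, which may be technical. The 8 genes and the 7 lists were chosen with earlier results of these data known. Of each list and comparison, the 4 called genes with the smallest adjusted p could be given with values, and further called genes were only named. The 5 genes with T>C reads most like those of MYC were also named.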

Additional observations from a re-analysis of the deposited data

How the results depend on the processing

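For the 8 members, the number called in T>C reads after PladB was 2 against each of DMSO, WX-02-23 and WX-02-43. It was 1 in all 3 comparisons with library totals alone, 1 against DMSO with a plain sum of intervals or only the 2 groups compared, and 1 against WX-02-23 and 0 against WX-02-43 with T>C reads scaled to all reads. Leaving out 1 library gave 1 to 3 members in each of the 3. With T>C reads scaled to all reads, the members called against DMSO were MNT and MLX, both lower. On that scaling neither MYC nor MXI1 was called in any of the 3 comparisons. The number called in all reads after WX-02-23 was 0, and 1 with DESeq2 (MAX). In all reads after PladB against DMSO, MXI1 and MXD1 were not called with library totals alone. MXD1 was also not called with DESeq2 or a plain sum over intervals. In reads without T>C, MYC was the 1 member called with no filter on low counts after WX-02-43 against DMSO and between the probes, and with DESeq2 between the probes. Leaving out 1 library gave 0 to 1 member in both of these, and 4 to 7 for PladB against WX-02-43. Directions that turned when 1 library was left out were all of values that were not called. For MYC they were WX-02-23 against DMSO (T>C reads −0.0335 to 0.24, all reads −0.0280 to 0.18, reads without T>C −0.12 to 0.35) and WX-02-43 against DMSO (T>C reads −0.17 to 0.10). After PladB they were MXD4 in T>C reads (−0.77 to 0.14), the labelled odds of MAX (−1.68 to 0.16), MXD1 (−0.48 to 1.13) and MNT (−1.72 to 0.52), and the labelled share of MXD1 (−19.8 to 3.45 percentage points) and MXD4 (−2.57 to 0.359). MXI1 T>C reads scaled to all reads, a value that was called on the main scaling, gave −0.0197. The cause was not tested.

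The median of all genes after PladB moved from −0.36 to −0.62 in T>C reads, from −0.07 to −0.32 in all reads and from −0.06 to −0.29 in reads without T>C with library totals alone, and to −1.15 in T>C reads scaled to all reads. With library totals alone, all reads gave 727 genes higher and 3294 lower, in place of 1829 and 2143. T>C reads gave 313 higher and 880 lower with library totals alone and 85 and 1750 scaled to all reads, and reads without T>C gave 633 and 2797 with library totals alone in place of 1563 and 1894. DESeq2 gave 689 higher and 1296 lower in T>C reads, in place of 506 and 633. With the replicate number as a replicate block, MYC changed by 1.09 in T>C reads and 2.88 in reads without T>C after PladB, and the counts of members called against DMSO were 2, 8 and 7, as without it. Same-numbered libraries did not deviate together (correlations from −0.0920 to 0.0763 in all reads, beside −0.0800 to 0.0816 for differently numbered ones). With 3 libraries a group, this cannot show whether they were handled together.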

Other observations

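MAX also has noncoding transcript entries that span the gene body, which the coding counts leave out. Over the span of 27572 bases (chromosome 14, 65541842 to 65569413, hg19), reads outside the coding 3′ ends came to 11.7%, 7.27% and 7.90% of the reads at those ends in DMSO, and to 25.8%, 40.6% and 10.8% after PladB. They came to 7.90% to 12.5% after WX-02-23 and 2.32% to 13.6% after WX-02-43. PladB replicates 1 and 2 were above all other libraries, and replicate 3 lay within the DMSO range. Scaled to library totals as CPM, the reads outside the ends were 3.65 to 5.45 in DMSO and 2.58 to 6.24 after PladB, which overlap. The raw reads at the ends numbered 1519, 1471 and 1747 in DMSO and 805, 480 and 750 after PladB.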
